A study of Mus musculus with 10 samples.

Results

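The 10 genes described here are early growth response (EGR) transcription factors and genes tied to T cell anergy: Egr1, Egr2, Egr3, Cblb, Dgka, Dgkz, Rnf128, Itch, Ndrg1 and Crtam. They were picked by GENCODE M21 symbol, and all 10 were found among 54337 annotated genes, of which 22049 had a read in any library. TCRP1A CD8 T cells, whose transgenic receptor sees the tumour antigen P1A, were activated for 24 h and infected with a retrovirus. A day later they were given to Rag1-/- B10D2 mice carrying P511 mastocytomas, and CD8 tumour-infiltrating lymphocytes were sorted for RNA-seq 7 days after transfer. The 3 groups differed only in the vector: empty-eGFP (libraries 3, 6 and 7), NFAT5 (libraries 1, 5 and 8) or NFAT1 CA-RIT (libraries 2, 4, 9 and 10), and no group was left untransduced. CA-RIT is a constitutively active NFAT1 mutated so that it cannot pair with AP-1. Every group therefore shared the activation step, the P1A receptor, the tumour and a host without T and B cells of its own. The strain is labelled C57BL/6, and the age of the mice is not given in the sources used here. Whether the libraries of a group stem from different animals is not stated, so the tests weigh only the spread between these libraries, which may be technical.

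EGR1, EGR2 and EGR3 are zinc-finger transcription factors made within minutes to hours of T cell receptor signalling. EGR2 and EGR3 are induced by NFAT and are known to raise genes that blunt later receptor signals, among them the ubiquitin ligase CBL-B and diacylglycerol kinases. NFAT acting without AP-1 is known to drive programmes of anergy and exhaustion, in which T cells persist but respond poorly. The brakes act at different steps: diacylglycerol kinases remove the lipid that turns on Ras and protein kinase C, whereas CBL-B, ITCH and GRAIL (made from Rnf128) mark signalling proteins with ubiquitin. NDRG1 has been described as a further anergy factor downstream of EGR2, and CRTAM is a surface receptor of activated CD8 T and NK cells.

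Of the 10 libraries, 9 held 18.8 to 36.6 M estimated reads, and eGFP control 7 held 0.0511 M. That library had 1 read of Dgkz and 0 of the other 9 members, and 3 counts there equal 58.7 CPM (counts per M reads of the library), so only a high level could have been seen. CA-RIT NFAT1 10 had 1 read of Cd8a, against 581 to 988 CPM in 8 libraries. It had 1859 CPM of Cpa3, 505 of Kit, 331 of Trap1a and 2997 of Chil3, which mark mast cells, P511 tumour and macrophages. Both were left out of the main values, which rest on 8 libraries, with 2 controls, 3 NFAT5 and 3 CA-RIT NFAT1. Among those 8, eGFP control 3 stood apart, with 13186 genes with reads against 15276 to 17255 and with dendritic cell markers summing to 1450 CPM against 234 to 471. Of the marker genes of other cells, Fcer1a, Tpsb2, Tpsab1, S100a9, Clec9a and Pax5 were at 0 in all 8, but others were present. Cpa3 was 66.1 CPM in eGFP control 3 and 11.8 CPM in control 6. Mast cell and P511 markers summed to 60.6 to 283 CPM over the 8 libraries, and macrophage and monocyte markers to 173 to 439 CPM. Summed CD8 T cell markers were higher in the controls (33576 and 42235 CPM) than in NFAT5 (27112 to 28672), with CA-RIT NFAT1 at 28676 to 34041, and the part of any of these in the results was not tested. Nfat5 itself reached 87.0, 81.6 and 48.0 CPM in the NFAT5 libraries, 1.12 and 6.88 in the controls and 3.01 to 10.7 in CA-RIT NFAT1. Nfatc2, which encodes NFAT1, gave no such split, with 88.8, 63.5 and 30.0 CPM in CA-RIT NFAT1, 70.0, 42.3 and 36.6 in NFAT5, and 4.00 and 47.3 in the controls.

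Compared per transcript length (mean TPM ± SD over the 8 libraries), Egr1 was the most abundant member at 231 ± 123 and Egr3 the least at 1.38 ± 1.49. Dgkz (143 ± 58.7) and Dgka (85.7 ± 30.9) followed Egr1, ahead of Cblb (44.8 ± 25.7). Ndrg1 (17.5 ± 10.2), Crtam (17.4 ± 4.26) and Egr2 (13.5 ± 11.3) lay close together, above Itch (8.95 ± 3.75) and Rnf128 (3.50 ± 2.62). Neighbours in this order differed by less than the larger of their SDs, apart from Dgka and Cblb, Cblb and Ndrg1, and Itch and Rnf128. Crtam was the steadiest member, with a 2.19-fold range of CPM, and Egr2 ran from 0 reads to 63.2 CPM. In a bulk sample, fewer cells of a type and less RNA per cell cannot be told apart.

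**Figure D1:**
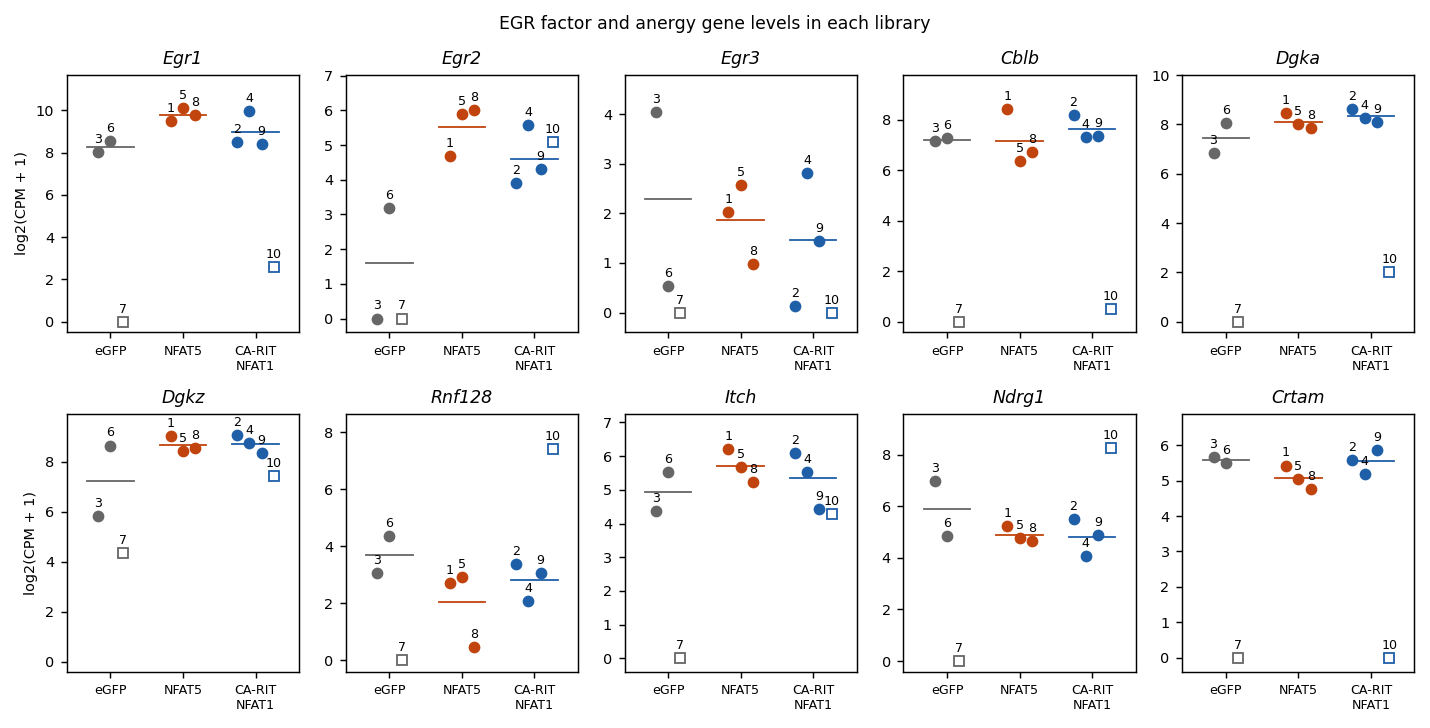
Level of each of the 10 genes in CPM by vector group, 1 numbered point per library, on a log2 scale of CPM plus 1, with lines at the means of the 8 main libraries and open squares for eGFP control 7 and CA-RIT NFAT1 10. Egr1 and Egr2 are higher in all 3 NFAT5 libraries than in eGFP controls 3 and 6, while eGFP controls 3 and 6 lie well apart for Egr3, Egr2, Dgkz and Ndrg1.

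No member passed an adjusted p of 0.05 in any of the 3 comparisons in edgeR's quasi-likelihood test, in which all 10 were tested among 14473 genes. The test called 0% of all genes for NFAT5 against eGFP, 0% for CA-RIT NFAT1 against eGFP and 0% for CA-RIT NFAT1 against NFAT5. At an unadjusted p under 0.05, 2 members stood out for NFAT5 (Egr1 and Ndrg1), 1 for CA-RIT NFAT1 (Ndrg1) and 0 between the vectors, where 1051, 932 and 163 genes did so. DESeq2 called 131, 100 and 4 genes and limma voom called 0 in each comparison, and neither called a member. The median log2 fold change of the members was 0.29 for NFAT5 and 0.34 for CA-RIT NFAT1, both against eGFP, where all tested genes had medians of 0.08 and 0.10. Without eGFP control 3 the member medians were 0.093 and 0.14 (all genes 0.051 and 0.050), and without control 6 they were 0.63 and 0.65 (all genes 0.45 and 0.49). In each comparison 6 of the 10 members lay on the higher side, near the share of all tested genes. That share was 53.9% for NFAT5 against eGFP, 54.6% for CA-RIT NFAT1 against eGFP and 50.5% between the vectors. The 2 eGFP comparisons share their controls.

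Each member is also described by whether its libraries overlapped between groups, for the 9 members whose mean was 5 CPM or more, which leaves out Egr3. Every NFAT5 library was above both controls for 2 members (Egr1 and Egr2, against 14.9% of such genes) and below both for 2 (Rnf128 and Crtam, against 8.98%). All 3 CA-RIT NFAT1 libraries were above both controls for 3 members (Egr2, Cblb and Dgka, against 14.4%) and below them for 0 (against 7.12%). Between CA-RIT NFAT1 and NFAT5, 0 members separated in either direction, and the shares over all such genes were 3.56% higher and 2.05% lower. Egr2 was thus the member above both controls under both vectors. Both comparisons use the same controls, and the share of all genes above them under both vectors was not counted.

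**Figure D2:**
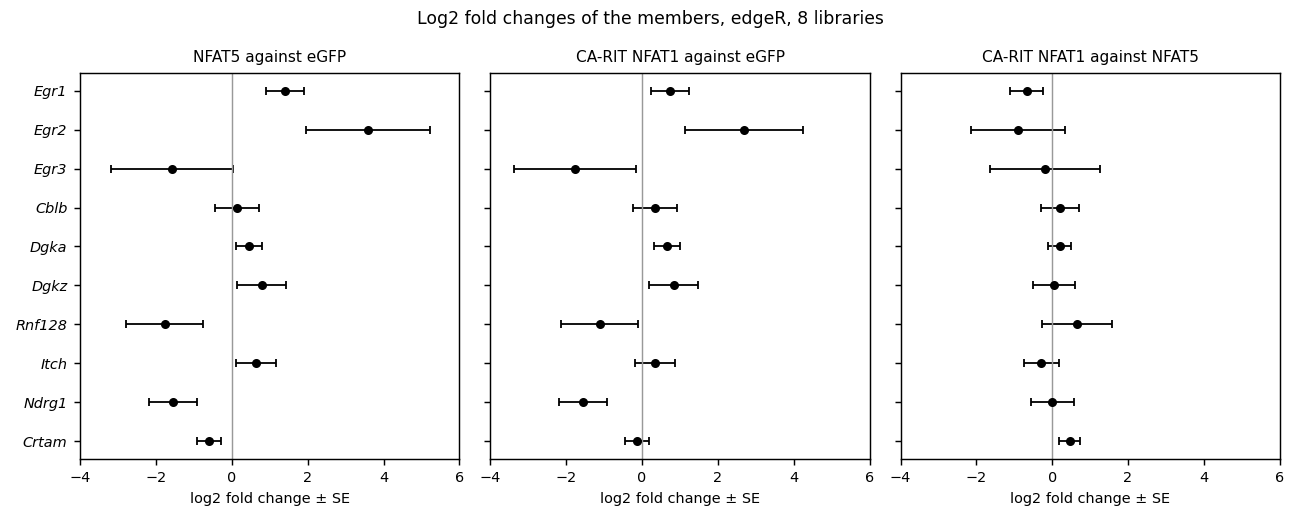
Log2 fold change of each member (horizontal axis) in the 3 comparisons from edgeR over 8 libraries, with bars of 1 standard error. Egr1 and Egr2 lie to the right and Ndrg1 to the left against eGFP, and the bars of most other members reach or lie near 0.

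Egr1 (chr18:34859823-34864984, plus strand, GRCm38) reached 712, 1096 and 873 CPM in the NFAT5 libraries and 260 and 372 CPM in the controls. In CA-RIT NFAT1 it was 361, 991 and 340 CPM. All 3 NFAT5 libraries were above both controls, whereas only library 4 of the CA-RIT NFAT1 group lay in the NFAT5 range, at 2.74 and 2.91 times the other two. The fold change on the log2 scale was 1.41 ± 0.50 (SE, n = 3 and 2) for NFAT5 against eGFP, with an adjusted p = 0.654 in edgeR's quasi-likelihood test. It was 0.74 ± 0.49 for CA-RIT NFAT1 against eGFP and 0.019 without CA-RIT NFAT1 4. Between the vectors it was -0.67 ± 0.43, and -1.39 without that library. Of the transcripts, Egr1-202 held 87.6% to 91.8% of the reads, so the differences lay on the same main transcript in all 8 libraries.

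The libraries that were high for Egr1 were also high for Tnf, a cytokine gene switched on by receptor signalling. Over the 8 libraries, among 9297 genes averaging 5 CPM or more, those with the highest Pearson correlation with Egr1 in log2 CPM were Slco3a1 (r = 0.94), Tnf (0.93) and Bcl2l1 (0.93). They encode an organic anion transporter, the cytokine TNF and the survival protein BCL-XL. Tnf was 60.2, 151 and 162 CPM in NFAT5, 20.7 and 15.4 in the controls and 27.5, 132 and 37.7 in CA-RIT NFAT1, so libraries 5, 8 and 4 led for both genes. These correlations share the libraries, depth and groups, and are given as a description. Without eGFP control 3, Slco3a1, Tnf and Bcl2l1 ranked 20, 14 and 10.

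Egr2 (chr10:67535475-67542188, plus strand) is the EGR factor most tied to anergy. It stood at 24.9, 58.6 and 63.2 CPM in NFAT5, at 14.0, 46.6 and 18.7 CPM in CA-RIT NFAT1, and at 0 and 8.01 CPM in eGFP controls 3 and 6. All 6 libraries with an NFAT vector were above both controls, and the NFAT5 and CA-RIT NFAT1 libraries overlapped. As log2 fold changes these were 3.58 ± 1.63 for NFAT5 against eGFP (adjusted p = 0.654, edgeR), 2.68 ± 1.55 for CA-RIT NFAT1 against eGFP and -0.90 ± 1.25 between the vectors. The 0 reads of eGFP control 3 weigh on the first 2: against control 6 alone the values were 2.59 and 1.70. Against the floor of 3 counts in control 3 (0.0821 CPM), the group means of 48.9 and 26.5 CPM were at least 595-fold and at least 322-fold higher. That floor covers counting error only and rests on control 3 alone, the library that stood apart. Egr1 and Egr2 followed a like order of libraries, with 5, 8 and 4 the 3 highest for both.

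Of the reads of Egr2, 80.3% to 97.5% fell on transcript Egr2-201 in the 7 libraries with reads, which starts at 67537869. Upstream windows are shown if no base is in an exon and the RefSeq start is at or next to the main transcript's start. For Egr2 these are the 250 bases before 67537869. They lie at chr10:67537619-67537868 on the plus strand (RefSeq, GRCm38.p6), with 61.6% G and C. Capitals mark, from left to right, a CArG box (the serum response factor element, 72 to 63 bases before the start), a short cyclic AMP response element (ACGTCA, 56 to 51) and the NFAT core GGAAA read on the minus strand (8 to 4).
Egr2: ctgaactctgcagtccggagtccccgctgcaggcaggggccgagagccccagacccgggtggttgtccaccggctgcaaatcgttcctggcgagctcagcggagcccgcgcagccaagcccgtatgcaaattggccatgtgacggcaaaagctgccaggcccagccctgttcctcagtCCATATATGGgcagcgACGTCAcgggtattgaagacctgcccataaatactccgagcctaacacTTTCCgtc

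Of 32851 RefSeq windows of the same length in this table, 1.47% held a CArG box on either strand, 6.47% ACGTCA, 55.6% GGAAA, 1.55% the full element TGACGTCA (which contains ACGTCA), 4.46% an AP-1 element (TGACTCA or TGAGTCA), 0.536% and 2.57% the EGR elements GCGTGGGCG and GCGGGGGCG, and 3.17% the FOXO core TGTTTAC. The letters of the AP-1, EGR and FOXO motifs and TGACGTCA are not in the Egr2 window, nor in the windows of Dgka and Rnf128 printed with those genes. GGAAA is in all 3 windows and is the commonest of the motifs searched. RefSeq entries matched 5 of the 10 members (Egr2, Dgka, Dgkz, Cblb and Rnf128). A match is a run of letters and not a measured binding site.

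Genes whose levels most resembled Egr2 were Csnk2a2, a casein kinase subunit, Gata3, a T cell transcription factor, and Ulbp1, a ligand of the receptor NKG2D (each r = 0.98 over 8 libraries). Gata3 was 62.1, 74.6 and 74.3 CPM in NFAT5, 58.9, 80.8 and 57.1 in CA-RIT NFAT1, and 20.3 and 46.6 in the controls. Ulbp1 was 19.5 to 24.6 CPM in NFAT5, 10.4 to 20.1 in CA-RIT NFAT1 and 2.05 and 11.3 in the controls. Each of the 3 was lowest in eGFP control 3, the library without Egr2 reads, and without it their ranks were 18, 9 and 20.

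Egr3 (chr14:70077203-70082614, plus strand) did not follow Egr2. It was 15.5 CPM in eGFP control 3 and 0.445 CPM in control 6, 3.10, 4.96 and 0.962 CPM in NFAT5, and 0.101, 6.05 and 1.70 CPM in CA-RIT NFAT1. The highest and the second lowest of the 8 values were thus both controls. The log2 fold changes of -1.57 ± 1.61 for NFAT5 and -1.76 ± 1.61 for CA-RIT NFAT1 became 2.72 and 2.54 without control 3. Most reads counted for Egr3 were assigned to Egr3-202, annotated as a retained intron. These were 514 of 566 reads in control 3, 173 of 175 in CA-RIT NFAT1 4 and 86 of 93 in NFAT5 5. Egr3-202 (70078739-70082614) overlaps the coding Egr3-204 (70077314-70082550). The split of reads between them was estimated, so it does not show how much Egr3 RNA was coding. By that estimate, coding transcripts held 0% to 18.2% of Egr3 reads in 7 libraries and all 11 reads of control 6. On coding transcripts alone, a setting chosen after this share was seen, Egr3 was at most 1.42 CPM, with log2 fold changes of -1.98 ± 1.96 for NFAT5 and -5.26 ± 2.20 for CA-RIT NFAT1 against eGFP and 52 of the reads in control 3. The genes closest to Egr3 were Zranb1 (r = 0.95), Vkorc1l1 (0.94) and Gm2a (0.94), and Gm2a, an activator of lysosomal lipid breakdown, was 169 CPM in eGFP control 3 against 94.1 to 144 in the others.

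**Figure D3:**
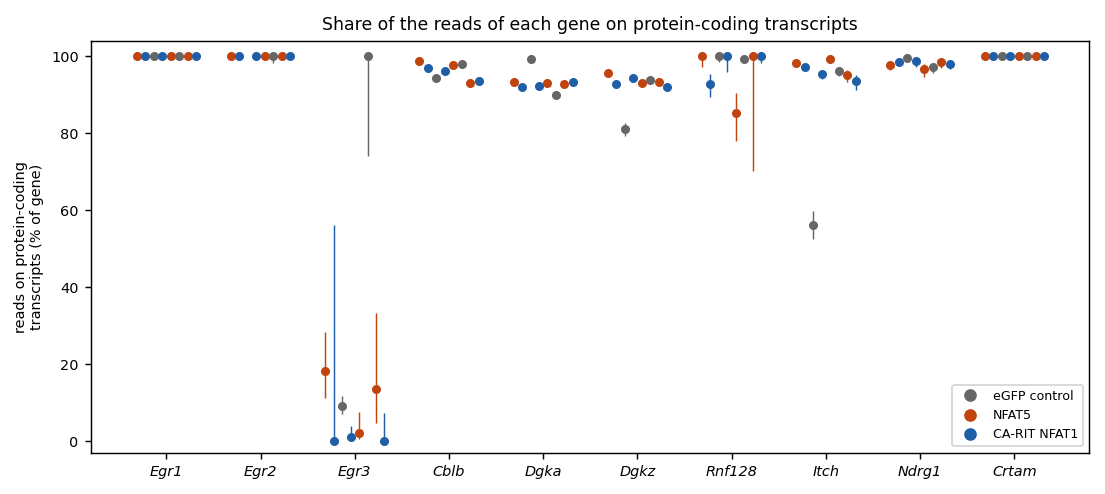
Percent of each gene's estimated reads assigned to protein-coding transcripts (vertical axis), with 95% Wilson intervals that leave out error in that assignment. There is 1 point for each of the 8 libraries with reads, coloured by group. Egr3 lies between 0% and 18.2% in 7 libraries, and Itch at 56.1% in eGFP control 3 against 93.5% to 99.3% in the other 7.

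The diacylglycerol kinases were abundant under every vector. Dgkz (chr2:91932824-91975864, minus strand), the zeta isoform, was 519, 343 and 374 CPM in NFAT5, 538, 432 and 322 CPM in CA-RIT NFAT1, and 55.9 and 402 CPM in the controls. Control 6 lay within the range of the NFAT libraries and 7.19 times above control 3. Against eGFP the log2 fold changes were 0.78 ± 0.64 and 0.83 ± 0.64, and 0.0057 and 0.051 without control 3. Dgkz-201 carried 77.7% to 90.4% of its reads, and coding transcripts 81.0% in control 3 against 92.1% to 95.6% in the others.

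Dgka (chr10:128720134-128744855, minus strand), the alpha isoform, was also lowest in control 3. It was 352, 258 and 229 CPM in NFAT5, 396, 303 and 273 CPM in CA-RIT NFAT1, and 115 and 268 CPM in the controls. CA-RIT NFAT1 was above both controls by under 5 CPM over control 6 at its closest, and NFAT5 overlapped with them. The log2 fold changes were 0.46 ± 0.35 and 0.66 ± 0.35, and 0.029 and 0.22 without control 3. Pmel, which overlaps Dgka on the other strand, was at most 2.09 CPM. The 250 bases upstream of the RefSeq start 1 base from Dgka-201, which held 89.8% to 99.4% of the reads, are at chr10:128744077-128744326 on the minus strand (GRCm38.p6). They are shown by the same rule as for Egr2. The only searched motif in them is GGAAA in capitals, 95 to 91 bases upstream.
Dgka: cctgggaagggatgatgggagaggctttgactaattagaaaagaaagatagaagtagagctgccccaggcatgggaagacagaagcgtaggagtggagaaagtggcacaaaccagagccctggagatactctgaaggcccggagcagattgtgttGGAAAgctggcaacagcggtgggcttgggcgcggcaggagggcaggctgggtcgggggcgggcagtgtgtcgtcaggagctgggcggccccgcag

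Among 12 other diacylglycerol kinases and diacylglycerol effectors, 10 were tested and 0 passed in any comparison, with 0 also at an unadjusted p under 0.05 in edgeR. Their median log2 fold change was 0.60 for NFAT5 and 0.58 for CA-RIT NFAT1 against eGFP, where all tested genes had medians of 0.08 and 0.10. The 12 genes summed to 438 CPM in control 3 and 952 in control 6. The sums were 962 to 1136 CPM in NFAT5 and 804 to 1108 in CA-RIT NFAT1. Dgkd, the delta isoform, was 0.657 CPM in control 3 and 31.3 in control 6, against 37.2 to 87.7 in NFAT5 and 30.7 to 74.7 in CA-RIT NFAT1. Rasgrp2, which encodes an activator of Rap, was 168 and 388 CPM in the controls and 319 to 500 in the 6 others. Dgki had 0 reads in both controls and at most 3.79 CPM elsewhere. Dgkh was 39.8 and 31.5 CPM in the controls, 15.9 to 35.1 in NFAT5 and 50.7, 31.6 and 19.5 in CA-RIT NFAT1. Dgkg was 0 and 6.60 CPM in the controls, 4.92, 0.266 and 1.35 in NFAT5 and 14.3, 1.97 and 3.05 in CA-RIT NFAT1.

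The ubiquitin ligases showed no common direction. Cblb (chr16:52031225-52208048, plus strand), whose product keeps T cell activation dependent on CD28, was 140 and 154 CPM in the controls and 292, 157 and 161 CPM in CA-RIT NFAT1. In NFAT5 it was 342, 81.0 and 103 CPM, a 4.22-fold range across the group. CA-RIT NFAT1 lay above both controls, with library 4 at 157 CPM within 3 CPM of control 6, and the NFAT5 values lay on both sides of them. The log2 fold changes were 0.13 ± 0.57 and 0.34 ± 0.57, and the first was -0.75 without NFAT5 1. Its reads were split over Cblb-201 (11.1% to 26.3%), Cblb-203 (25.9% to 38.8%) and Cblb-204 (23.1% to 48.2%).

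Itch (chr2:155133509-155226855, plus strand), a HECT-type ligase, was 72.6, 50.4 and 36.9 CPM in NFAT5, 66.8, 45.6 and 20.6 CPM in CA-RIT NFAT1, and 19.8 and 44.8 CPM in the controls. The groups overlapped, and the log2 fold changes were 0.63 ± 0.53 and 0.35 ± 0.53. They were 0.22 and -0.070 without eGFP control 3, and 1.25 and 0.97 without control 6. The main transcript Itch-201 was assigned 0 of 725 estimated reads in eGFP control 3, against 52.2% to 88.2% in the other 7 libraries. Counting error alone would allow a share of up to 0.527% (Wilson). In control 3 the gene's reads were assigned to Itch-202 (56.1%) and to the retained-intron transcript Itch-203 (21.5%). Itch-201 (155133509-155226855) and Itch-202 (155133559-155226853) span nearly the same bases. The split of reads between them was estimated, so Itch-201 was not shown to be absent.

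Rnf128 (chrX:139563316-139673145, plus strand), which encodes GRAIL, was low in these CD8 T cells. It was 7.28 and 19.5 CPM in the controls, 5.56, 6.50 and 0.393 CPM in NFAT5 and 9.46, 3.18 and 7.27 CPM in CA-RIT NFAT1. The NFAT5 libraries were below both controls, by under 1 CPM from control 3 at the closest, and CA-RIT NFAT1 overlapped with the controls. The log2 fold changes were -1.77 ± 1.01 (adjusted p = 0.661, edgeR) and -1.12 ± 1.01. They were -2.26 and -1.61 without eGFP control 3, and -0.98 and -0.33 without control 6. A median of 99.7% of its reads fell on Rnf128-201, but this share ran from 0% to 100% over the 8 libraries. The share of Rnf128-202, which starts at 139563316, also ran from 0% to 100%. The main transcript by median share was thus not the main one in every library. The 250 bases before the start of Rnf128-201, chrX:139610370-139610619 on the plus strand (GRCm38.p6), are shown by the same rule as for Egr2. Capitals mark a CArG box 217 to 208 bases upstream. The other capitals are GGAAA on the minus strand (163 to 159 and 116 to 112).
Rnf128: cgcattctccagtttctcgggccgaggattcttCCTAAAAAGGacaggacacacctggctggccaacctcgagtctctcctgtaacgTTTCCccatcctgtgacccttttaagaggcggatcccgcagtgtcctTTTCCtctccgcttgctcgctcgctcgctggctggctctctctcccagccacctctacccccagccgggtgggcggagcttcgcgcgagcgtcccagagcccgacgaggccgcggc

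Of 15 further ubiquitin ligases and adaptors near CBL-B, ITCH and GRAIL, all were tested and 0 passed the threshold in edgeR. Wwp1, a HECT ligase related to ITCH, had the smallest p: it was 12.5, 11.8 and 8.26 CPM in NFAT5, 14.8, 4.98 and 8.37 in CA-RIT NFAT1, and 1.10 and 2.95 in the controls. Its log2 fold changes were 2.34 ± 0.70 (adjusted p = 0.654, edgeR) and 2.10 ± 0.69 (adjusted p = 0.679). Ndfip1, an adaptor that activates ITCH, lay on the other side, at 772 and 628 CPM in the controls against 504 to 550 in NFAT5 and 485 to 600 in CA-RIT NFAT1. Its log2 fold changes were -0.51 ± 0.20 and -0.53 ± 0.20. Usp8 was 15.7 and 35.7 CPM in the controls and 28.2 to 51.2 elsewhere, and Nedd4 42.1 and 41.9 against 25.7 to 58.4.

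Ndrg1 (chr15:66929318-66969640, minus strand) was 126 CPM in eGFP control 3 and 27.5 CPM in control 6. It was 36.7, 26.4 and 23.9 CPM in NFAT5 and 44.1, 16.0 and 28.4 CPM in CA-RIT NFAT1. Control 3 alone was high, 4.58 times control 6, and control 6 lay inside both other groups. The log2 fold change was -1.56 ± 0.63 under each vector (adjusted p = 0.654 for NFAT5 and 0.679 for CA-RIT NFAT1, edgeR), and 0.045 and 0.041 without control 3. Between CA-RIT NFAT1 and NFAT5 it was 0.00 ± 0.57. Its closest genes Zfp219, Amigo1 and Frg1 (each r = 0.97) were likewise highest in control 3: Amigo1, a neuronal adhesion protein, was 19.4 CPM there and 1.80 to 4.41 in the others. Gm17035, antisense to Ndrg1, was at most 1.67 CPM.

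Crtam (chr9:40969691-41004628, minus strand) was 42.1, 32.4 and 26.4 CPM in NFAT5, 49.5 and 44.7 CPM in the controls, and 46.9, 35.4 and 57.9 CPM in CA-RIT NFAT1. All 3 NFAT5 libraries were below both controls, with NFAT5 1 within 3 CPM of control 6, and CA-RIT NFAT1 overlapped with both groups. The log2 fold change was -0.60 ± 0.31 for NFAT5 against eGFP (adjusted p = 0.654, edgeR), -0.14 ± 0.31 for CA-RIT NFAT1 and 0.46 ± 0.28 between the vectors. Libraries 5, 8 and 4, the highest for Egr1 and Egr2, were the 3 lowest for Crtam. Genes closest to Crtam were Trim44 (r = 0.96), Zfx (0.95) and Il7r (0.95), the interleukin-7 receptor. Il7r was 24.4, 7.25 and 4.46 CPM in NFAT5, 23.9, 12.8 and 29.3 in CA-RIT NFAT1 and 24.6 and 17.6 in the controls, and the 3 genes ranked 1, 2 and 6 without eGFP control 3.

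Several members depended on which control library was used. With control 3 as the only control, assumed to vary like the other groups, edgeR called 3294 of 16011 genes (20.6%) for NFAT5 and 3410 (21.3%) for CA-RIT NFAT1. Among them were 4 of the 10 members in each comparison: Egr2, Dgka, Dgkz and Ndrg1, with adjusted p-values of 0.00205, 0.0399, 0.00217 and 0.00844 for NFAT5 and 0.00270, 0.0225, 0.00201 and 0.00836 for CA-RIT NFAT1. With control 6 as the only control, Dgka, Dgkz and Ndrg1 had log2 fold changes between 0.0057 and 0.22 in both comparisons. Egr1 was 1.24 with control 6 and 1.62 with control 3 for NFAT5. Dendritic cell markers, the number of genes with reads and the Itch and Dgkz transcript shares also set control 3 apart, and their part in these values was not tested.

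**Figure D4:**
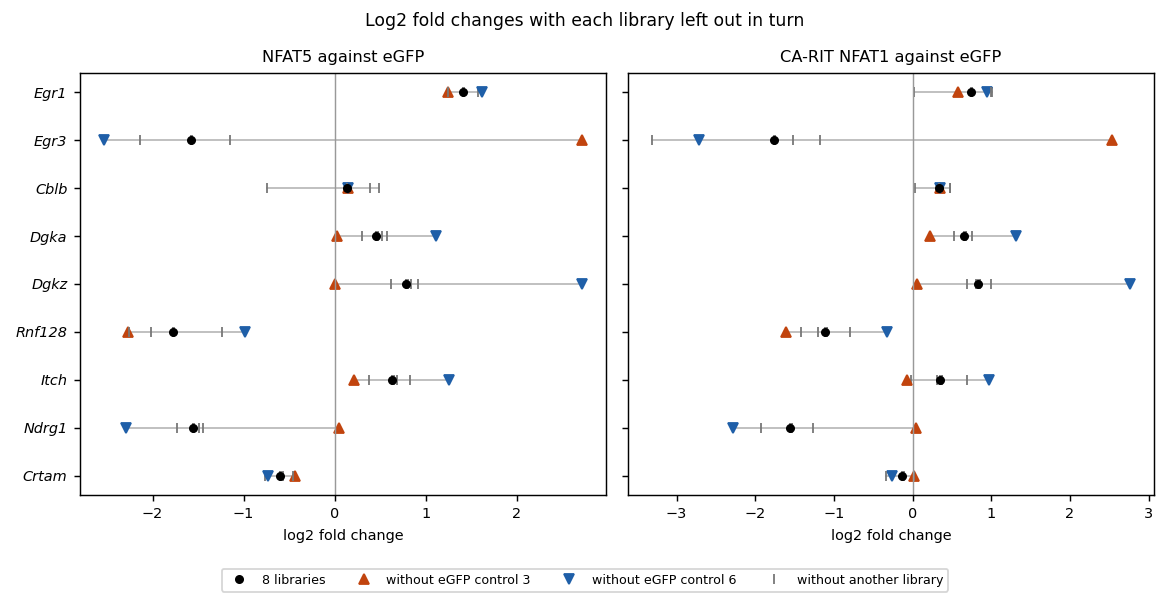
Log2 fold change against eGFP (horizontal axis) of 9 members over 8 libraries and with each library left out, for NFAT5 (left) and CA-RIT NFAT1 (right). Egr2 is not drawn because without eGFP control 6 its control level is 0. Dgkz and Ndrg1 lie near 0 without eGFP control 3 and at 2.71 and -2.29 without control 6 for NFAT5, while Egr1 stays between 1.24 and 1.62.

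Among the partners and relatives of the EGR factors, NAB1 and NAB2 bind EGR proteins and repress them: Nab1 was 85.2 and 145 CPM in the controls, 120 to 215 in NFAT5 and 151 to 180 in CA-RIT NFAT1. Nab2 was 10.8 and 28.7 CPM in the controls, 22.1 to 38.1 in NFAT5 and 27.7 to 49.3 in CA-RIT NFAT1. Egr4, the fourth EGR factor, was at most 7.26 CPM. All 3 were tested and 0 passed in edgeR, with 0 also at an unadjusted p under 0.05. The log2 fold changes of Nab1, Nab2 and Egr4 were 0.38 ± 0.30, 0.54 ± 0.47 and 2.59 ± 2.26 for NFAT5, and 0.44 ± 0.30, 0.72 ± 0.48 and 2.30 ± 2.22 for CA-RIT NFAT1.

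Of 20 other genes tied to EGR2, EGR3 or anergy, 0 passed in edgeR. In the 3 comparisons 5, 3 and 1 had an unadjusted p under 0.05, where 7.26%, 6.44% and 1.13% of all tested genes did so. Of those listed genes, 1, 0 and 0 lay on the higher side and 4, 3 and 1 on the lower side. Id2, an inhibitor of E proteins, was 962 and 635 CPM in the controls, 387 to 549 in NFAT5 and 400 to 477 in CA-RIT NFAT1, with log2 fold changes of -0.91 ± 0.27 and -1.04 ± 0.27. Cdkn1a, the cell-cycle inhibitor p21, was 344 and 145 CPM in the controls and 73.5 to 152 elsewhere. Tnfrsf9, the costimulatory receptor 4-1BB, was 1322 and 551 CPM in the controls, 510, 181 and 170 in NFAT5 and 545, 301 and 487 in CA-RIT NFAT1. Nr4a1, another early gene of receptor signalling, lay on the side of Egr1, at 305, 406 and 478 CPM in NFAT5, 263, 461 and 185 in CA-RIT NFAT1 and 214 and 116 in the controls. Its log2 fold change for NFAT5 was 1.14 ± 0.46 (adjusted p = 0.654, edgeR). Socs1, an inhibitor of cytokine signalling, was 29.2 to 39.2 CPM in NFAT5 and 18.3 to 22.6 in CA-RIT NFAT1, a log2 difference of -0.73 ± 0.32. Nrn1, a membrane-anchored protein also made by anergic T cells, was 22.9, 6.45 and 4.68 CPM in NFAT5, 18.9, 12.4 and 39.7 in CA-RIT NFAT1 and 8.38 and 10.5 in the controls.

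The other immediate early genes lay on both sides of the controls. Of the 18 tested, 0 passed in edgeR, 6 lay on the higher side against eGFP under each vector, and the median log2 fold changes were -0.41 and -0.25. Dusp2, a nuclear phosphatase of MAP kinases, was the closest to Egr1 in direction, at 797, 2509 and 2338 CPM in NFAT5, 787, 1523 and 841 in CA-RIT NFAT1 and 559 and 294 in the controls. Its log2 fold change for NFAT5 was 2.03 ± 0.60 (adjusted p = 0.654, edgeR). Ier2 was 419, 869 and 782 CPM in NFAT5 against 438 and 333 in the controls, and Ier5 139, 168 and 119 against 79.4 and 107. Fos, an AP-1 subunit, was 912 CPM in control 6 and 177 to 486 in the other 7 libraries. Ier3 was 147 and 58.5 CPM in the controls and 27.2 to 70.4 elsewhere, and Klf6 303 and 219 against 144 to 246.

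The 2 libraries outside the main values add limits rather than levels. CA-RIT NFAT1 10, with 1 read of Cd8a, had 304 CPM of Ndrg1, 171 of Dgkz, 170 of Rnf128, 32.8 of Egr2, 18.6 of Itch and 5.02 of Egr1, with Cblb at 0.400, Dgka at 3.08 and Crtam and Egr3 at 0 reads. Crtam, Cblb, Dgka and Egr1 were thus all far lower in this 1 library than in the 8 main libraries. Their lowest values in those 8 were 26.4, 81.0, 115 and 260 CPM. With all 10 libraries in the fit, Rnf128 for CA-RIT NFAT1 against eGFP turned to 1.62 on the log2 scale and Ndrg1 to 0.14. That fit called 0 of 13783 genes in each of the 3 comparisons, and so 0 members.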

How the data were processed

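RNA-seq of sorted CD8 tumour-infiltrating T cells was analysed in 10 libraries. Per the submitters' processing notes, the tool was Salmon 0.14.1 and the builds mm10 and GRCm38.p6, and the options used were not stated there. The deposited estimated counts are per transcript and were made by the authors, per the file headers. The deposited TPM values were summed per gene for the order of levels and weighted an average transcript length offset, which also used the deposited effective lengths (other than an expression value). Of 140919 transcripts, 139966 matched GENCODE M21, and 953 (at most 0.292% of reads) were left out. The release was inferred from identical lengths (99.9% of matches).

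Counts were summed per gene and rounded. CPM used all matched gene reads without TMM, and log2 levels a pseudocount of 1 CPM. The test was edgeR 4.0.16 (R 4.3.3), quasi-likelihood, TMM, filterByExpr and Benjamini-Hochberg adjustment at 0.05, with all 3 groups in 1 fit, and SE is the absolute log2 fold change over the root of F. Alternatives included DESeq2 1.42.0, limma 3.58.1 voom, other scalings and filters, all 10 libraries, coding transcripts alone and leaving out each library. On simulated data for NFAT5 against eGFP (13795 genes), the fit recovered 2%, 40%, 74% and 92% of genes changed by 1, 2, 4 and 6 on the log2 scale, with 1 false call. Intervals and floors cover counting error only.

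Members and lists were chosen with earlier results of these data known. Named genes were all members, the genes of each other list past the threshold or else the 2 with the smallest p in each comparison, the 3 genes with the highest Pearson r with Egr1, Egr2, Egr3, Ndrg1 and Crtam, transcripts with at least 20% of a member's reads, and marker genes. Egr3-202, Egr2-201, Rnf128-201, Nfat5 and Nfatc2 were added after their values were seen.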

Additional observations from a re-analysis of the deposited data

Results flagged for a closer look

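CA-RIT NFAT1 10, the library with 1 read of Cd8a, lay far from the other 3 libraries of its group for Rnf128 (170 CPM) and Ndrg1 (304 CPM). By chance about 1 in 20 groups has such a library. In this library, which is outside the main values, Egr2 (32.8 CPM), Rnf128 (170 CPM) and Ndrg1 (304 CPM) were also above eGFP controls 3 and 6, by 8.73-fold over eGFP control 6 for Rnf128 and 2.41-fold over eGFP control 3 for Ndrg1. eGFP control 7 had 0 reads of all 3, which for Egr2 allows up to 58.7 CPM. Mast cell and P511 markers summed to 5257 CPM and macrophage markers to 5837 CPM there, against 60.6 to 283 and 173 to 439 in the 8 libraries, and their part in these values was not tested.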

How the results depend on the processing

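No paired analysis was run. The replicate numbers are the running numbers of the libraries, and whether libraries of different groups were handled together is not stated. With 2 controls of which 1 stands apart, and a biological coefficient of variation of 0.725, changes of 1 on the log2 scale were seldom recovered in simulation, so a missed threshold does not show that levels were alike. With DESeq2, which here tested 21694 genes where edgeR tested 14473, the count of called genes was 131 for NFAT5 and 100 for CA-RIT NFAT1, both against eGFP, and 4 between the vectors, in place of 0. Leaving out each library in turn gave 0 to 3294 and 0 to 3410 called genes and 0 to 4 called members against eGFP, the upper values without eGFP control 6. Of the 15 genes most like a member, 3 stayed so without eGFP control 3.

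Of the log2 fold changes, these changed sign. For NFAT5 against eGFP, Cblb was -0.44 under limma voom, and over the left-out libraries Egr3 ran from -2.53 to 2.72, Cblb from -0.75 to 0.49 and Ndrg1 from -2.29 to 0.045. For CA-RIT NFAT1 against eGFP, all 10 libraries gave 1.62 for Rnf128 and 0.14 for Ndrg1, and leaving out libraries gave -3.32 to 2.54 for Egr3, -0.070 to 0.97 for Itch, -2.29 to 0.041 for Ndrg1 and -0.34 to 0.019 for Crtam. For CA-RIT NFAT1 against NFAT5, all 10 libraries gave -0.21 for Cblb, -0.22 for Dgka and -0.21 for Dgkz. Ndrg1, near 0 in that comparison, was -0.000833 under DESeq2, -0.23 under voom, -0.0022 under RLE scaling, -2.16e-05 with no low-count filter and -0.28 with the length offset. Leaving out libraries there gave -1.74 to 0.39 for Egr3, -0.13 to 1.11 for Cblb, -0.12 to 0.23 for Dgkz, -0.67 to 0.054 for Itch and -0.37 to 0.29 for Ndrg1. The cause was not tested. The strict filter, at 5 CPM on average, gave no value for Egr3. No sign changed under upper-quartile scaling, with only the 2 groups compared, or with coding transcripts alone.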
